A study of Mus musculus with 7 samples.

Results

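The genes described here are 10 regulators of muscle mass: the ubiquitin ligases Fbxo32, Trim63 and Fbxo30, the FoxO transcription factors Foxo1, Foxo3 and Foxo4, the growth inhibitor Mstn (myostatin) with its receptor Acvr2b and its antagonist Fst (follistatin), and the transcription factor Klf15. They were chosen by gene symbol, each was measured by 1 probe set, and they are 10 of the 19938 genes tested. RNA came from the extensor digitorum longus, a fast hindlimb muscle, of 3 AMPKα1α2 double knockout mice and 4 wild type mice, with 1 single-colour array taken as 1 mouse. The genetic background of both genotypes was a mix of C57/Bl6 and SV129. The sources used here do not say whether the deletion was limited to muscle, nor the age, sex or exercise state of the mice. The comparison asks how transcripts of muscle wasting and growth inhibition differ between muscle labelled as lacking both catalytic subunits of AMPK (AMP-activated protein kinase), an enzyme that senses low cellular energy, and wild type muscle.

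Muscle shrinks when protein breakdown outruns synthesis, and much of that breakdown runs through ubiquitin ligases that mark proteins for the proteasome. FoxO factors switch on the ligase genes when they enter the nucleus. Insulin and growth factor signals keep them out through the kinase Akt, and AMPK is known to phosphorylate FoxO3. Myostatin, a TGF-β family ligand made by muscle fibres, signals through the activin type II receptors to Smad2 and Smad3 and restrains fibre growth, and follistatin binds and neutralises it. KLF15 is a glucocorticoid-induced factor that promotes amino acid breakdown in muscle.

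The promoter windows of 7 of the 10 genes were matched in the RefSeq promoter table (build GRCm38.p6). Fbxo32, Foxo4 and Fst had no window there, so their promoters were not searched for any motif. The FoxO core motif GTAAACA, searched on both strands of the 250 bases before the start site, was found in 1 of the 7, that of Trim63, and in 3.17% of all 32851 windows. The shorter form TAAACA, which is part of the core motif, also matched Trim63 alone among the 7, against 12% of all windows. E-boxes (CANNTG), the motif class bound by myogenic factors, were found in 4 of the 7 and in 66.2% of all windows. The Trim63 and Mstn windows are shown because the first holds the FoxO core motif and the second the most E-boxes among the 7, with motifs in capitals. In Trim63 (chr4:134314870-134315119, plus strand) the capitals mark the FoxO core, on the reverse strand and beginning 194 bases before the start, and 3 E-boxes. In Mstn (chr1:53061390-53061639, plus strand) they mark 4 E-boxes and the short cyclic AMP response motif TGACG, which begins 58 bases before the start.
Trim63: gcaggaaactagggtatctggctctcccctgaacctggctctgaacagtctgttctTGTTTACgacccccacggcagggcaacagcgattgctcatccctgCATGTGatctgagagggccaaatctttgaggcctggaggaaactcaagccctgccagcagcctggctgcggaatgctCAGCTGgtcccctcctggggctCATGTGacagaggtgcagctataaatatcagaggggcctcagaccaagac
Mstn: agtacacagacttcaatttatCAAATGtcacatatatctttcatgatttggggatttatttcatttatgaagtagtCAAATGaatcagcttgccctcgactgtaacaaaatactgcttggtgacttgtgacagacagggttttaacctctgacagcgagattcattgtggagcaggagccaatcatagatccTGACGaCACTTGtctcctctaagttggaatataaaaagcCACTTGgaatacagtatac
A match is a description of the letters and not a measured binding site. The motif TGACG occurred in 3 of the 7 windows and in 17.8% of all windows, the KLF-type motif CACCC in 1 and 52%, the short Smad motif CAGAC in 4 and 42.2%, and the full Smad box GTCTAGAC in 0 and 0.167%.

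Values are the deposited expression values on a scale read as log2, and array medians lay between 7.501 and 7.584. The fast fibre markers, which define this muscle, averaged 12.17 to 14.23 per gene in a table that ends at 14.65, and their mean over 12 genes was 13.66 to 13.68 in knockout and 13.61 to 13.66 in wild type arrays (Mylpf, a fast myosin light chain, differed by 0.14 ± 0.06, SE). Of the targeted genes, Prkaa1 (the α1 subunit) read 9.09, 9.19 and 8.80 in knockout muscle, against 9.54, 9.48, 9.61 and 9.53 in wild type muscle. Prkaa2 (the α2 subunit) read 12.04, 11.95 and 12.04 in knockout muscle, against 12.31, 12.03, 12.28 and 12.28 in wild type muscle. Both averages were lower in knockout muscle, neither difference passed (limma adjusted p = 0.12 and 0.39), and whether the probes lie in the deleted exons is not given, so the genotypes were taken from the labels. Knockout replicate 2 stood apart through immediate early genes, which a stimulus induces within minutes: their mean over 21 genes was 10.58 there, 8.63 and 8.86 in the other knockout arrays and 8.50 to 8.80 in wild type arrays. Atf3, a stress-induced factor of that set, read 10.12, 12.35 and 10.57 in knockout muscle, against 8.41, 10.02, 8.63 and 8.64 in wild type muscle. Where leaving this array out moved the difference of 1 of the 10 genes by over 1.5 times or across 0, both values are given.

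None of the 10 genes passed. Differences were tested with limma over all probe sets that have 1 gene symbol, and a gene passed at a Benjamini-Hochberg adjusted p under 0.05, which 0 of the 10 and 0.0251% of all genes reached (5 of 19938). The unmoderated test passed 0 of all genes, so its count of 0 for the 10 adds nothing about them. At an unadjusted p under 0.05 there were 2 of the 10, Fst above and Foxo4 below wild type, against 10.6% of all genes (3.93% above and 6.69% below wild type). The genotypes did not overlap for the same 2 genes, 1 in each direction, against 8.61% of all genes (3.29% above and 5.33% below). In a set of 10 genes, counts this small over that background are no result about the set. The median difference (knockout minus wild type) over the 10 was 0.03, beside -0.0049 over all genes. Of the 10 differences 7 were above 0 with all arrays, and 4 without knockout replicate 2, where the median was -0.02.

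**Figure D1:**
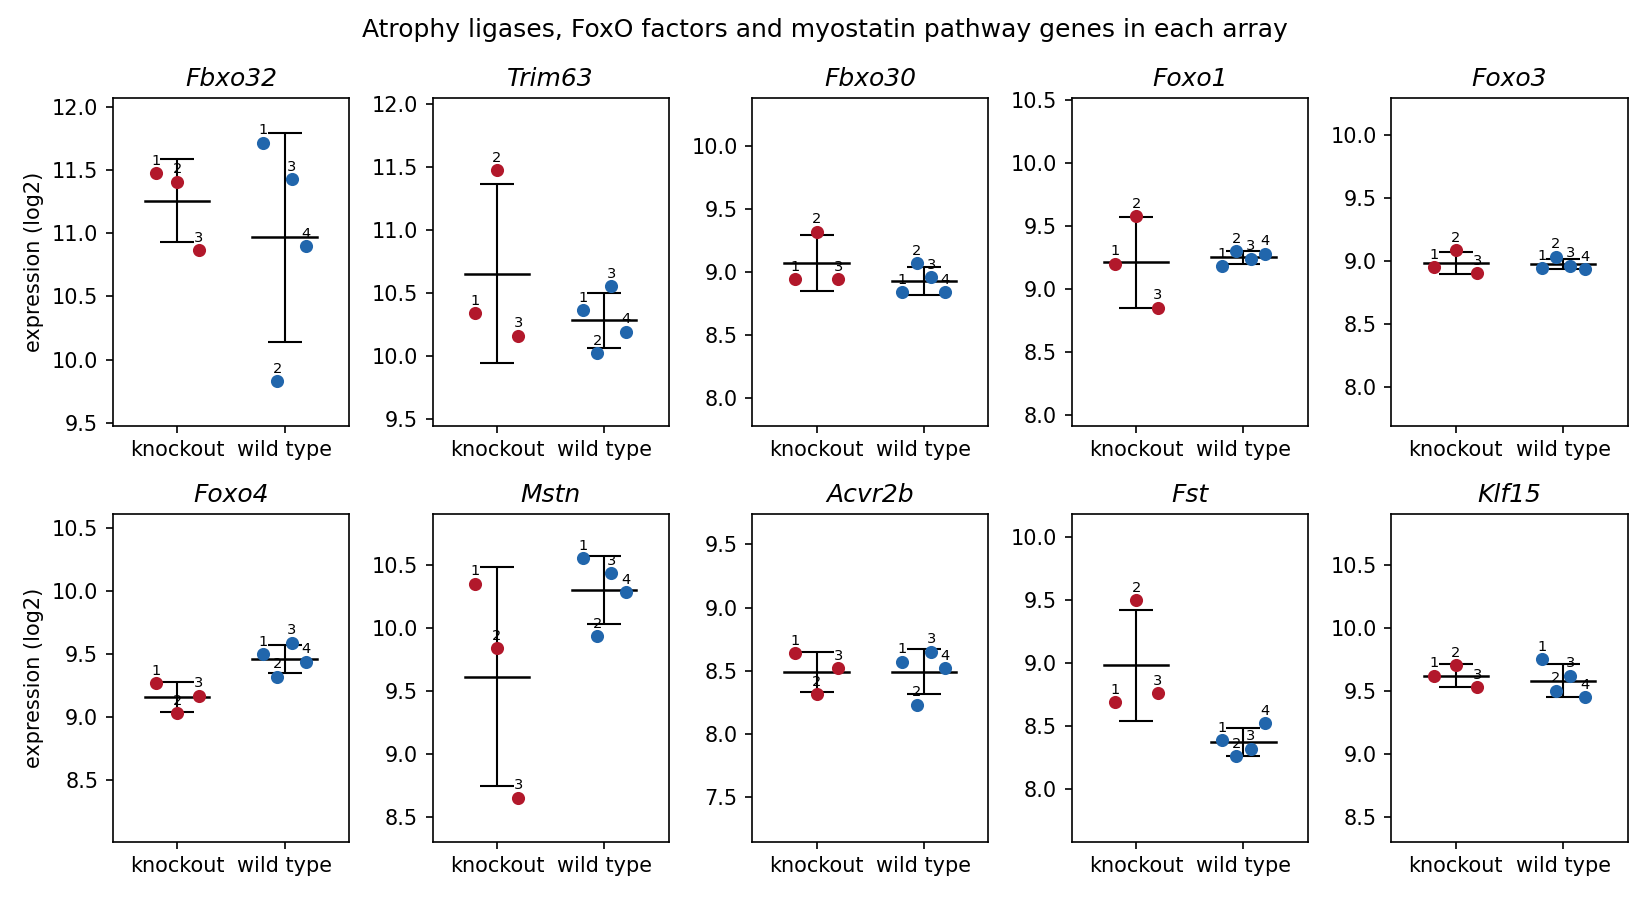
Expression (log2, vertical axis) of the 10 genes in the 3 knockout (red, left) and 4 wild type (blue, right) arrays, numbered by replicate, with the mean and SD of each genotype in black and the same axis span in each panel. Fst in knockout lies above and Foxo4 below all wild type arrays, Mstn and Trim63 spread most in knockout, and Fbxo32 spreads most in wild type.

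The classic atrophy ligases did not separate the genotypes, and their variation between mice of 1 genotype was large. Fbxo32 (atrogin-1 or MAFbx, the F-box protein that recruits substrates such as MyoD and eIF3f to an SCF ligase; probe set 10428796) read 11.48, 11.41 and 10.87 in knockout muscle, against 11.72, 9.83, 11.43 and 10.90 in wild type muscle. All 3 knockout values fell inside the wild type range, whose low end was wild type replicate 2. The averages were 11.26 ± 0.33 (SD, n = 3) in knockout and 10.97 ± 0.83 (SD, n = 4) in wild type muscle. That gave a difference of 0.28 ± 0.44 (SE), with a 95% interval of -0.76 to 1.32 and a limma adjusted p of 0.87. Without wild type replicate 2 it was -0.10, so the sign rested on that array. The interval still holds a difference of over 1 log2 unit above wild type, so the data do not show that Fbxo32 was alike in the genotypes.

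The wild type spread of Fbxo32 was itself uncommon. Its SD of 0.83 was rank 12 of 19938 genes in wild type muscle, where the median gene had an SD of 0.0612, and its wild type range of 1.89 lay between mice of the same label. In knockout muscle its range was 0.61. Its SD of 0.33 there was also large, as 2.45% of all genes had as large a knockout SD and the median was 0.0776. The muscle gene Klhl38, a Kelch-domain protein, had 1 of the 3 patterns most like that of Fbxo32 among genes brighter than the median gene. Pearson r was 0.965 over the 7 arrays and 0.971 without knockout replicate 2, a description. Klhl38 read 10.56, 10.40 and 9.70 in knockout muscle, against 11.06, 8.68, 10.76 and 10.33 in wild type muscle, with wild type replicate 2 again the lowest.

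Trim63 (MuRF1, a RING ligase that ubiquitinates myosin heavy chain and other thick filament proteins; probe set 10508953) was high in 1 knockout mouse. It read 10.34, 11.47 and 10.16 in knockout muscle, against 10.36, 10.02, 10.55 and 10.19 in wild type muscle. Knockout replicate 2 lay 0.92 above every other array, and the remaining knockout arrays lay inside the wild type range. The averages were 10.65 ± 0.71 (SD, n = 3) in knockout and 10.28 ± 0.22 (SD, n = 4) in wild type muscle, a difference of 0.37 ± 0.31 (SE; 95% interval -0.37 to 1.11; limma adjusted p = 0.74). Without knockout replicate 2 the difference was -0.03. The immediate early genes were high in that same array, and their part in the Trim63 value was not tested. Among genes brighter than the median gene, the pattern most like that of Trim63 was that of Hes1, a Notch-induced repressor. The r was 0.999 over the 7 arrays and 0.994 without knockout replicate 2, a description.

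Trim54 and Trim55, the MuRF3 and MuRF2 relatives of Trim63 that bind the sarcomere and microtubules, are named after their values were seen. Trim54 read 10.69, 10.54 and 10.52 in knockout muscle, against 10.81, 10.81, 10.77 and 10.69 in wild type muscle. Trim55 read 10.23, 10.10 and 10.03 in knockout muscle, against 10.42, 10.24, 10.32 and 10.26 in wild type muscle. For both genes every knockout value was below every wild type value, for Trim54 by less than the printed decimals show, and both differences were -0.19 (SE 0.05 and 0.06). Neither passed (limma adjusted p = 0.31 and 0.39).

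Fbxo30 (MUSA1, an F-box protein whose gene is repressed by BMP signalling in muscle; probe set 10361748) read 8.94, 9.32 and 8.94 in knockout muscle, against 8.84, 9.07, 8.96 and 8.84 in wild type muscle. Knockout replicate 2 was again the highest array, and the other knockout arrays lay inside the wild type range. The difference was 0.14 ± 0.11 (SE; 95% interval -0.12 to 0.40; limma adjusted p = 0.72), and 0.01 without knockout replicate 2.

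Among the FoxO factors, Foxo1 and Foxo3 averaged close to wild type and Foxo4 was lower in each knockout array. Foxo4 (an X-linked FoxO factor also known as AFX; probe set 10601091) read 9.27, 9.03 and 9.17 in knockout muscle, against 9.50, 9.32, 9.59 and 9.44 in wild type muscle. The highest knockout array and the lowest wild type array were 9.27 and 9.32, so the gap between the genotypes was narrow. The averages were 9.16 ± 0.12 (SD, n = 3) in knockout and 9.46 ± 0.11 (SD, n = 4) in wild type muscle, 1.24-fold lower in knockout. The difference of -0.31 ± 0.08 (SE; 95% interval -0.49 to -0.12) had an unadjusted p of 0.0058 in limma and an adjusted p of 0.26, so it did not pass. It kept its sign when each array was left out in turn, from -0.36 to -0.24, and 3.73% of all genes differed by as much in either direction.

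Since Foxo4 is X-linked, sex-linked transcripts were read, which were named after their values were seen. Xist, expressed from the inactive X of females, read 5.53 to 5.70 in knockout and 5.45 to 5.75 in wild type arrays. The Y-linked Eif2s3y read 9.29 to 9.50 in knockout and 9.31 to 9.69 in wild type arrays. Neither separated the genotypes. The Y-linked Kdm5d and Uty read 8.10 to 8.38 and 8.85 to 9.17 over both genotypes. Every array had Xist below and the Y-linked genes above its median, the pattern of male mice.

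Foxo1 (a FoxO factor able to activate the ligase genes and Pdk4; probe set 10491962) read 9.20, 9.58 and 8.85 in knockout muscle, against 9.18, 9.30, 9.24 and 9.28 in wild type muscle. Its highest and its lowest value were both in knockout arrays, replicates 2 and 3, and the wild type arrays lay within 0.12 of each other. The SD was 0.36 (n = 3) in knockout and 0.05 (n = 4) in wild type muscle, and whether this spread differs was not tested. The difference was -0.04 ± 0.15 (SE; 95% interval -0.40 to 0.32; limma adjusted p = 0.96). Leaving out knockout replicate 2 gave -0.22 and leaving out replicate 3 gave 0.14, so no direction can be given.

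Foxo3 (the FoxO factor known as an AMPK substrate and as a driver of autophagy genes; probe set 10368888) was the steadiest of the FoxO genes. It read 8.95, 9.08 and 8.90 in knockout muscle, against 8.94, 9.03, 8.96 and 8.93 in wild type muscle. The ranges overlapped, with knockout replicate 2 the highest and knockout replicate 3 the lowest of the 7 arrays. The difference was 0.01 ± 0.05 (SE), and its 95% interval of -0.11 to 0.13 was the narrowest of the 10. Without knockout replicate 2 the difference was -0.04. These arrays measure transcript only, and FoxO activity is set largely by phosphorylation and nuclear entry, which they do not read.

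Within the myostatin pathway, Fst was higher in each knockout array, Mstn was far below the others in 1 knockout mouse, and Acvr2b did not differ beyond its spread. Fst (follistatin, the secreted antagonist of myostatin and activins; probe set 10412260) read 8.69, 9.50 and 8.76 in knockout muscle, against 8.39, 8.26, 8.32 and 8.52 in wild type muscle. All 3 knockout arrays lay above all 4 wild type arrays, with knockout replicate 2 lying 0.73 above every other array. The averages were 8.98 ± 0.44 (SD, n = 3) in knockout and 8.37 ± 0.11 (SD, n = 4) in wild type muscle, 1.53-fold higher in knockout. The difference of 0.61 ± 0.19 (SE; 95% interval 0.16 to 1.07) had an unadjusted p of 0.015 in limma and an adjusted p of 0.35, so it did not pass. Without knockout replicate 2 it was 0.36, and 0.747% of all genes differed by as much in either direction with all arrays.

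Of the genes brighter than the median gene, the one with the pattern most like that of Fst was Id2. Id2 is a BMP-induced inhibitor of basic helix-loop-helix factors (r = 0.986 over the 7 arrays and 0.936 without knockout replicate 2). Id2 read 8.87, 10.46 and 8.91 in knockout muscle, against 8.47, 8.08, 8.50 and 8.64 in wild type muscle. Like Fst it was highest in knockout replicate 2 and did not overlap between genotypes, and it did not pass (limma adjusted p = 0.45). Its difference was 0.99 with all arrays and 0.47 without knockout replicate 2.

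Mstn (myostatin itself; probe set 10346250) read 10.35, 9.84 and 8.65 in knockout muscle, against 10.55, 9.93, 10.43 and 10.28 in wild type muscle. Knockout replicate 3 lay 1.19 below every other array, knockout replicate 2 lay just below the lowest wild type array, and knockout replicate 1 lay inside the wild type range. The averages were 9.61 ± 0.87 (SD, n = 3) in knockout and 10.30 ± 0.27 (SD, n = 4) in wild type muscle. The difference of -0.69 was the furthest from 0 of the 10, but its SE was 0.38, its 95% interval ran from -1.59 to 0.22 and it did not pass (limma adjusted p = 0.61). Leaving out knockout replicate 3 gave -0.20, leaving out replicate 1 gave -1.06 and leaving out replicate 2 gave -0.80. The sign held in each of these fits, and the size depended on which knockout mouse was left out. When limma weighted the arrays by their agreement, knockout replicate 3 got a weight of 0.2944 and the others 0.7654 to 1.988.

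Acvr2b (the activin type IIB receptor that binds myostatin; probe set 10590169) read 8.64, 8.31 and 8.52 in knockout muscle, against 8.57, 8.23, 8.65 and 8.52 in wild type muscle. The ranges of the genotypes overlapped almost entirely. The difference was 0.00 ± 0.12 (SE), and the 95% interval of -0.27 to 0.28 bounds any difference it leaves room for. Without knockout replicate 2 the difference was 0.09.

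Klf15 (probe set 10540028) read 9.62, 9.70 and 9.53 in knockout muscle, against 9.75, 9.50, 9.62 and 9.45 in wild type muscle. The knockout arrays lay inside the wild type range. The difference was 0.04 ± 0.08 (SE; 95% interval -0.15 to 0.23; limma adjusted p = 0.91), and -0.0037 without knockout replicate 2.

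**Figure D2:**
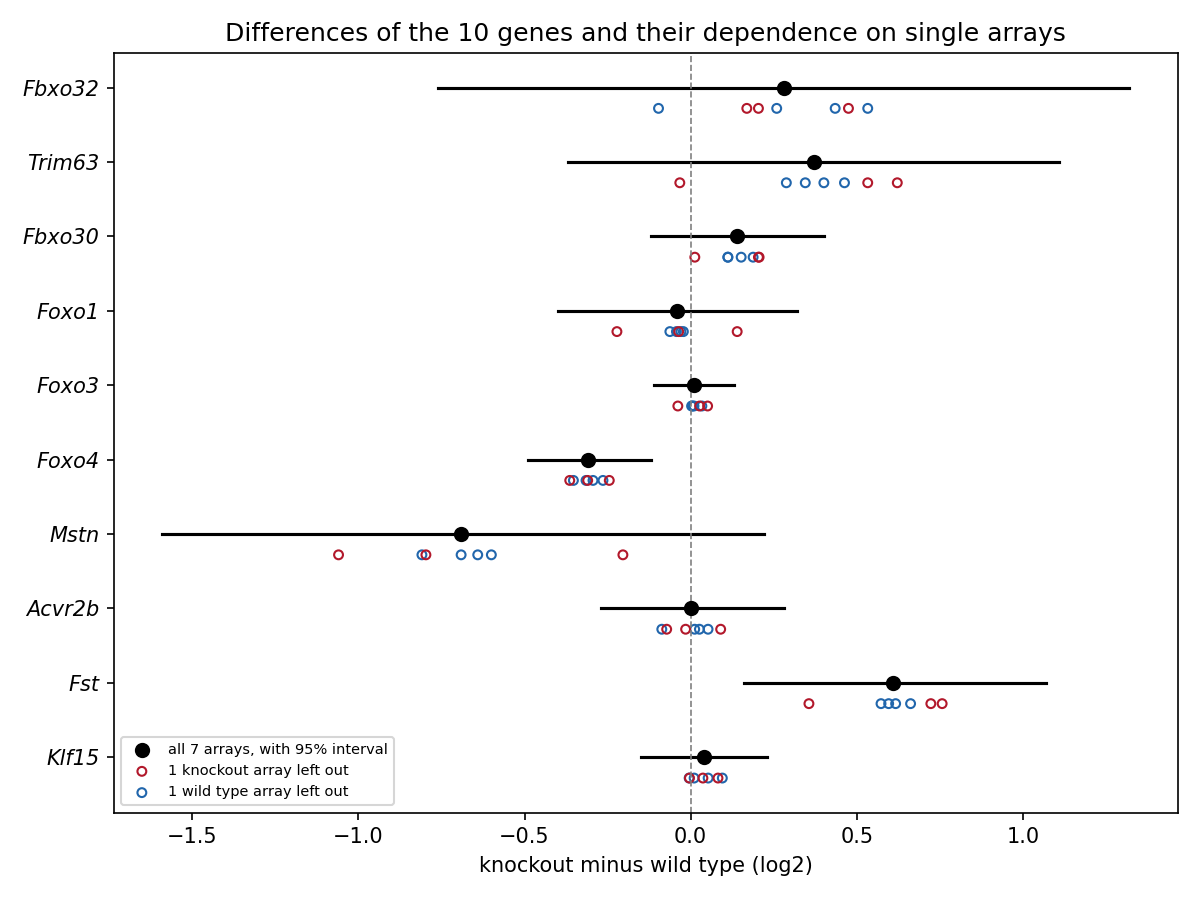
Knockout minus wild type differences (log2, horizontal axis) of the 10 genes with 95% limma intervals over all 7 arrays (black), and the differences with 1 knockout (red rings) or 1 wild type (blue rings) array left out. The intervals of Foxo4 and Fst exclude 0 before adjustment, and leaving out 1 array carries Fbxo32, Trim63, Foxo1, Foxo3, Acvr2b and Klf15 across 0.

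Read across arrays, single mice set much of the variation. Knockout replicate 2 was the highest of the 7 arrays for 5 of the 10 genes, namely Trim63, Fbxo30, Foxo1, Foxo3 and Fst, and it was the highest for 10% of all genes. Wild type replicate 2 was the lowest array for 4 of the 10, namely Fbxo32, Trim63, Acvr2b and Fst, and for 11.4% of all genes. Knockout replicate 3 was the lowest for Foxo1, Foxo3 and Mstn, and for 17.6% of all genes. These are descriptions of 7 arrays and were not tested.

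**Figure D3:**
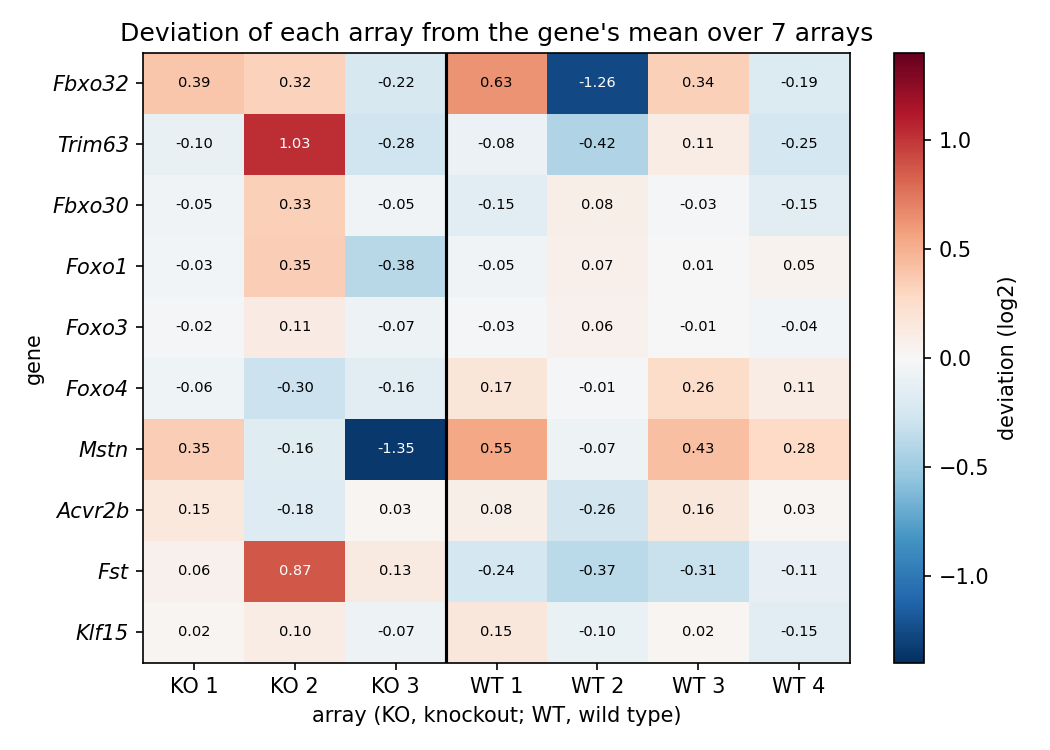
Deviation of each array from the mean of the gene over all 7 arrays (log2, colour and printed number), with genes in rows and the 3 knockout (KO) arrays left of the 4 wild type (WT) arrays. Trim63 and Fst stand out in knockout replicate 2, Mstn in knockout replicate 3 and Fbxo32 in wild type replicate 2.

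In the wider pathways 0 of 171 entries in 7 lists passed, against 0.0251% of all genes, a share at which few or none would pass. Some genes are entered in more than 1 list. The list medians ran from -0.05 to 0.04, beside -0.0049 over all genes. Of 32 measured FoxO target and other atrophy genes, 3 were above and 4 below wild type at an unadjusted p under 0.05, with a median difference of -0.02. Over all genes 3.93% were above and 6.69% below wild type at that threshold, and the counts of each list below are read against those shares. Sod2, the mitochondrial superoxide dismutase, read 12.04, 12.02 and 11.96 in knockout muscle, against 12.31, 12.36, 12.30 and 12.28 in wild type muscle. Its difference of -0.31 ± 0.03 (SE) had an adjusted p of 0.083 in limma. Mt2, a metallothionein induced by glucocorticoids and metals that rises in wasting muscle, read 12.07, 13.88 and 12.37 in knockout muscle, against 11.66, 11.76, 11.55 and 11.48 in wild type muscle (difference 1.16 ± 0.40, SE; limma adjusted p = 0.40). Both genes separated the genotypes, in opposite directions. Mt2 was highest in knockout replicate 2, and its difference was 0.61 without that array.

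Among 23 measured FoxO regulators and cofactors, 2 were above and 2 below wild type at the same unadjusted threshold, with a median of -0.01. Mdm2, the ligase of p53 that also targets FoxO proteins, differed by 0.19 ± 0.06 (SE; limma adjusted p = 0.31), and the 14-3-3 protein gene Ywhaz by 0.23 ± 0.09 (adjusted p = 0.43). A second probe set of Ywhaz differed by 0.105 ± 0.082, and without knockout replicate 2 the first differed by 0.13. Among 27 other muscle ubiquitin ligase genes, 3 were above and 5 below wild type, with a median of -0.05. Klhl41, a Kelch protein that stabilises nebulin, read 12.82, 12.88 and 12.85 in knockout muscle, against 12.70, 12.63, 12.69 and 12.57 in wild type muscle. All knockout arrays lay above all wild type arrays, at a difference of 0.20 ± 0.04 (SE; limma adjusted p = 0.16). Nedd4l, a HECT ligase of membrane proteins, differed by 0.23 ± 0.06 (adjusted p = 0.28).

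Of 27 measured genes of myostatin and activin signalling, 4 were above and 3 below wild type at an unadjusted p under 0.05, with a median of 0.01 that was -0.01 without knockout replicate 2. Inha, the inhibin α subunit, read 9.17, 9.87 and 9.13 in knockout muscle, against 8.65, 8.97, 8.21 and 8.75 in wild type muscle, without overlap. Its difference was 0.74 ± 0.23 (SE; limma adjusted p = 0.35). Smad4, the Smad shared by the myostatin and BMP arms, differed by -0.13 ± 0.04 (adjusted p = 0.37), also without overlap. The other 5 genes at that threshold are named after their values were seen, and the genotypes overlapped for each. Acvr2a, the second activin type II receptor, and Wfikkn2, another myostatin antagonist, differed by -0.19 ± 0.07 and -0.36 ± 0.13 (limma adjusted p = 0.41 and 0.42). Wfikkn2 had 2 probe sets, of which only the one with the higher mean is given. The ligand gene Tgfb1, the TGF-β receptor gene Tgfbr2 and the follistatin-like Fstl1 differed by 0.26 ± 0.09, 0.25 ± 0.09 and 0.36 ± 0.15 (limma adjusted p = 0.38, 0.39 and 0.46).

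BMP signalling opposes the myostatin arm in muscle, and the list holds both its activators and its inhibitors. Of its 24 genes 2 were above and 2 below wild type, with a median of 0.02. The ligand genes Bmp4 and Bmp6 had the smallest p of the list and differed in opposite directions. Bmp4 read 9.18, 9.72 and 9.19 in knockout muscle, against 8.79, 8.61, 8.88 and 8.99 in wild type muscle. Bmp6 read 9.19, 9.04 and 8.93 in knockout muscle, against 9.45, 9.69, 9.43 and 9.37 in wild type muscle. Neither gene overlapped between genotypes and neither passed, at 0.55 ± 0.15 (limma adjusted p = 0.29) and -0.43 ± 0.09 (limma adjusted p = 0.18).

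Of 22 glucocorticoid receptor and KLF15 genes, 2 were above and 2 below wild type, with a median of -0.04. That median was -0.11 without knockout replicate 2 and 0.04 under array weights, so it has no stable sign. Got1, the cytosolic aspartate aminotransferase, read 12.46, 12.27 and 12.27 in knockout muscle, against 12.71, 12.81, 12.77 and 12.63 in wild type muscle. Its difference was -0.40 ± 0.06 (SE; limma adjusted p = 0.11), with no overlap. Glul, the glutamine synthetase that glucocorticoids induce in wasting muscle, read 12.30, 12.73 and 12.15 in knockout muscle, against 11.66, 12.19, 11.90 and 11.79 in wild type muscle. It differed by 0.51 ± 0.17 (limma adjusted p = 0.38), and knockout replicate 3 lay below wild type replicate 2.

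**Figure D4:**
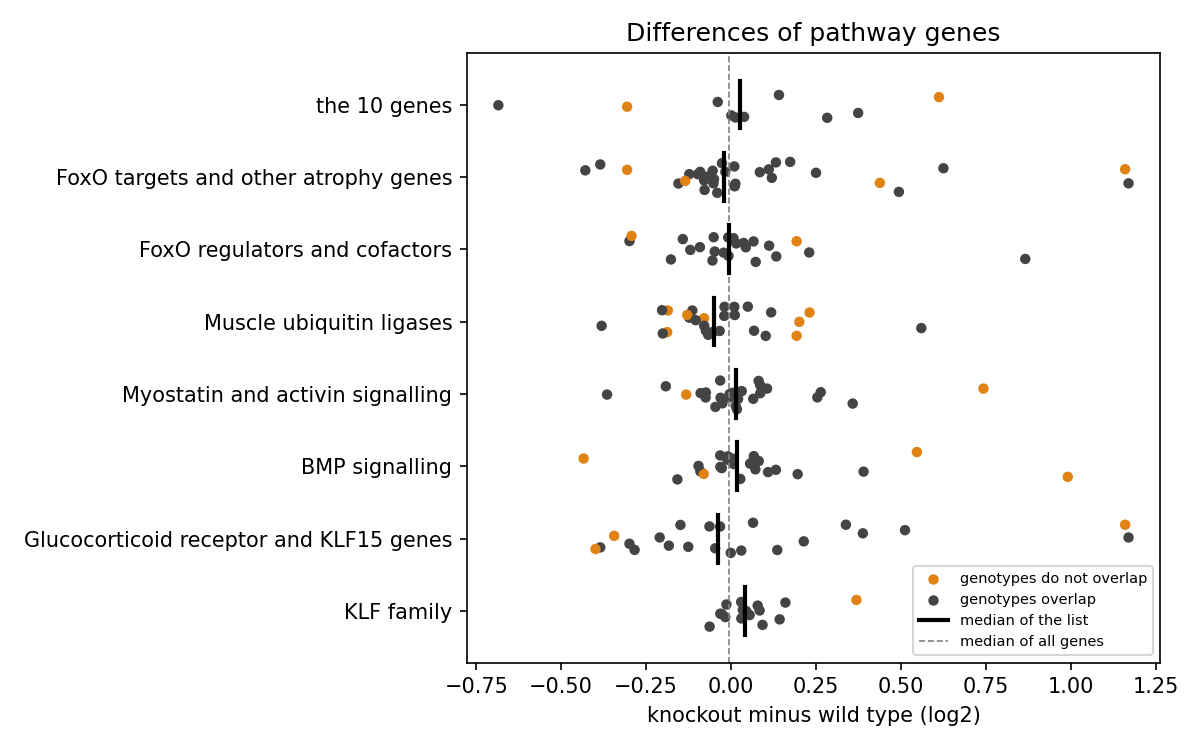
Knockout minus wild type differences (log2, horizontal axis) of each measured gene of the 10 and of 7 pathway lists, with genes whose genotypes do not overlap in orange, list medians as black bars and the median of all genes as a dashed line. Every list median lies between -0.05 and 0.04, and genes without overlap lie on both sides.

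Marker levels of several other cell types lay apart between the genotypes, although 2 markers in all passed, both myeloid. In whole muscle fewer cells of a type and less RNA per cell cannot be told apart. All 14 myeloid markers were above wild type, as were 46.7% of all genes, and 13 did not overlap, against 3.29% of all genes above without overlap. They had a mean level of 8.69 to 8.85 in knockout and 8.07 to 8.30 in wild type arrays. Lyz2, the myeloid lysozyme, rose by 0.94 ± 0.05 (SE; limma adjusted p = 0.0088). That call was lost with the replicate block (adjusted p = 0.24), in the unmoderated test (0.12) and without wild type replicate 1, 3 or 4 (0.095, 0.066 and 0.099), while the difference stayed at 0.92 or above in these fits. All 12 endothelial markers were below wild type, as were 53.3% of all genes, with mean levels of 9.24 to 9.33 in knockout and 9.50 to 9.66 in wild type arrays, and Cdh5, the endothelial cadherin, differed by -0.32 ± 0.06 (limma adjusted p = 0.12). Connective tissue markers overlapped, with mean levels of 10.63 to 11.07 in knockout and 10.43 to 10.83 in wild type arrays, and Dpt differed by 0.42 ± 0.08 (limma adjusted p = 0.14). Myeloid and endothelial levels separated the genotypes as Fst and Foxo4 did, and their part in those values was not tested.

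Within the fibres, slow fibre markers had mean levels of 8.49 to 9.21 in knockout and 8.28 to 8.48 in wild type arrays, with 7 of 8 above wild type and Tnni1, slow troponin I, at 1.00 ± 0.17 (limma adjusted p = 0.12). Markers of the denervation response had mean levels of 8.79 to 9.06 in knockout and 8.53 to 8.69 in wild type arrays, with 10 of 11 above wild type, beside the same 46.7% of all genes. Ncam1, an adhesion molecule that reappears on denervated fibres, differed by 1.01 ± 0.14 (SE; limma adjusted p = 0.095). Dach2, the marker below wild type, is named after its values were seen. It differed by -0.499 without overlap (limma adjusted p = 0.2). Both mean levels separated the genotypes, that of the slow fibre markers only narrowly at knockout replicate 2. Denervation is known to induce the ligases Fbxo32, Trim63 and Fbxo30, and its part in their values was not tested. Satellite cell markers ran from 8.38 to 8.61 in knockout and from 8.28 to 8.44 in wild type arrays, with Vcam1 at 0.30 ± 0.11 (limma adjusted p = 0.41), or 0.17 without knockout replicate 2. Adipocyte markers ran from 8.05 to 8.19 in knockout and from 8.20 to 8.48 in wild type arrays, with Fabp4 at -0.34 ± 0.10 (limma adjusted p = 0.30). Pericyte and smooth muscle markers ran from 9.05 to 9.14 in knockout and from 9.19 to 9.35 in wild type arrays, with Notch3 at -0.29 ± 0.05 (limma adjusted p = 0.11). Schwann cell markers ran from 8.22 to 8.36 in knockout and from 8.28 to 8.30 in wild type arrays, with Mbp at -0.04 ± 0.03 (limma adjusted p = 0.73), or -0.02 without knockout replicate 2. The part of each cell type in the values of the 10 genes was not tested.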

How the data were processed

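The labels' protocols record TRIzol extraction and labelling of 100 ng total RNA with the Ambion WT Expression Kit. The authors deposited 1 table of log2 values for 28856 probe sets on 7 arrays. The log base is inferred from their range, 4.41 to 14.65, and the sources used here name no background correction, normalization or software. Probe sets were named through GEO's platform annotation: 21789 had 1 gene symbol and were tested, 1621 had several and 5446 were unnamed here. A gene with several probe sets was read through the one with the highest mean.

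Knockout minus wild type was fitted with limma 3.58.1 (lmFit, eBayes) in R 4.3.3 on all 7 arrays without covariates, with Benjamini-Hochberg adjustment over the 21789 probe sets. The method was tested on simulated data. Values after ± are SE unless marked SD. Named genes were the 10 members, Prkaa1 and Prkaa2, the 2 genes of each pathway list and the 1 of each marker list with the smallest p. By Pearson r, the 3 genes most like each member were also read, among genes with a mean above the median gene mean. Those quoted were picked afterwards, and the highest r among many genes on 7 arrays is high through that choice. Of 180 pathway list entries 171 were measured. The members and lists were chosen with earlier results of these data known. That the arrays are separate mice follows from the series design, and the number of arrays limits precision. Alternatives left out each array, added a replicate block or array weights, rescaled the arrays (quantiles or medians), dropped probe sets under the 25th percentile of mean signal, used a trended robust prior or an unmoderated test, adjusted over all probe sets, averaged the probe sets of a gene, or set the threshold at 0.10. Promoter sequences came from RefSeq (GRCm38.p6).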

Additional observations from a re-analysis of the deposited data

Results flagged for a closer look

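Among the 10 genes and the targeted genes, 1 wild type group held an array set apart from the others by Dixon's test, which chance flags in about 1 of 20 groups. For Prkaa2, wild type replicate 2 read 12.03 while the other wild type arrays read 12.28 to 12.31, a gap of 0.911 of the range. The same array was the lowest for Fbxo32 at 9.83, where the wild type arrays were spread too evenly to be flagged. Knockout groups hold 3 arrays and were not tested in this way.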

How the results depend on the processing

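The number of the 10 genes that passed was 0 in the reported fit and in each of 17 alternatives. Their median difference, 0.0257 in the reported fit, ran from -0.0182 without knockout replicate 2 to 0.111 without knockout replicate 3. This median has no stable sign. The median deviation of the 10 genes had an SD of 0.121 between arrays of a genotype. No alternative moved the median difference from its reported value by as much as that SD. The number without overlap was 2 in the reported fit and after rescaling by quantiles or medians, and 3 without knockout replicate 1. Leaving out an array cannot lower this count, and refits on unchanged values cannot alter it, so they do not test it. The count over all genes, 5 in the reported fit, was 0 with the replicate block and with the unmoderated test, 72 at an adjusted p under 0.10, and 0 to 14 when 1 array was left out. Fst, Foxo4, Mstn and Fbxo30 kept their sign in all 16 refits, with adjusted p from 0.18 to 0.65, 0.14 to 0.57, 0.26 to 0.78 and 0.35 to 0.98. Under array weights Trim63 was 0.661 and Fbxo30 0.259, and Fbxo30 then joined Fst and Foxo4 at an unadjusted p under 0.05, as Mstn did without knockout replicate 1. Signs turned elsewhere, always at differences that had not passed: Foxo1 to 0.128 under array weights, Foxo3 to -0.00373 and Acvr2b to -0.0158 after median centring, Acvr2b to -0.0791 under array weights and Klf15 to -0.0046 with the replicate block. Leaving out 1 array gave -0.0968 to 0.533 for Fbxo32, -0.0327 to 0.622 for Trim63, -0.222 to 0.14 for Foxo1, -0.0386 to 0.051 for Foxo3, -0.0869 to 0.0903 for Acvr2b and -0.0046 to 0.0953 for Klf15. List medians near 0 had no stable sign for FoxO targets (-0.0422 to 0.0102), FoxO regulators (-0.0242 to 0.00683), myostatin and activin signalling (-0.0141 to 0.0374) and glucocorticoid genes (-0.112 to 0.0388). The cause was not tested. The labels do not say whether equal replicate numbers mark paired mice. Deviations of same-numbered arrays correlated at 0.287, 0.159 and -0.197 across genes. Knockout replicates 1 and 2 correlated best with the wild type array of the same number. Knockout replicate 3 correlated best with wild type replicate 4 (0.204), so a pairing is neither shown nor excluded. The block leaves wild type replicate 4 without a partner. Dim signals can be compressed towards background, and no detection calls were used.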

Other observations

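The KLF family, relatives of Klf15, had 11 of 16 measured members above wild type, as were 46.7% of all genes, and a median difference of 0.04, with 0 passing and 2 at an unadjusted p under 0.05 in limma, which 10.6% of all genes reached. Klf5, a factor of smooth muscle and regenerating tissue, read 9.16, 9.80 and 9.35 in knockout muscle, against 8.98, 9.13, 9.00 and 9.16 in wild type muscle. Klf13 read 8.88, 8.98 and 8.78 in knockout muscle, against 8.70, 8.71, 8.79 and 8.67 in wild type muscle. Both were highest in knockout replicate 2. Klf5 differed by 0.37 with all arrays and by 0.19 without that one, and without that array 0 of the 16 had an unadjusted p under 0.05 and the median was 0.0029.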
